A study of Mus musculus with 9 samples.

Results

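The tumour suppressor *Trp53* and 9 genes known as its arrest and feedback targets (*Cdkn1a*, *Mdm2*, *Ccng1*, *Btg2*, *Trp53inp1*, *Sesn2*, *Eda2r*, *Phlda3* and *Zmat3*) were followed in RNA-Seq libraries of NMuMG cells, an immortalized epithelial line from the mouse mammary gland. The 10 genes were chosen by their symbols with their values in these libraries already known, so that their gene levels are given below as a description without a test. They are represented by 36 annotated transcripts, of 131100 transcripts and 52459 gene symbols quantified in all, and all 10 genes passed the filter of at least 1 count per 1000000 (CPM) in at least 3 libraries. All cells were stable transfectant pools kept under G418 selection and received no other treatment. In 3 libraries the cells carried the empty pBICEP-based vector (mock, libraries 203 to 205), in 3 they overexpressed the full transcript of the long noncoding RNA EPR (BC030870) from that vector (EPR, libraries 206 to 208), and in 3 they overexpressed a point mutant of it, EPRSTOPE, in which the second codon of the short reading frame is a stop and no peptide is made (libraries 209 to 211). A viral (CMV) promoter drives the transgene, the pools were mixed transfectants and not clones, and the sources used here do not say whether the 3 libraries of a condition came from separate pools. SDs and p-values thus measure the spread between these libraries.

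p53 is a transcription factor that is made and destroyed continuously. MDM2, itself a product of a p53 target gene, marks p53 for degradation, which makes a negative feedback loop, and much of the control of p53 therefore acts on the protein and is not seen in its mRNA. After DNA damage or other stress the stabilized protein binds to response elements near its target genes, among them *Cdkn1a*, whose product p21 inhibits cyclin-dependent kinases and halts the cell cycle.

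The 9 libraries held 5972457 to 11876435 estimated counts, and 3 counts, taken as the detection floor, were worth 0.253 to 0.502 CPM. EPR RNA had 0 to 2 counts in the mock libraries, 214 to 271 in the EPR libraries and 28 to 39 in the EPRSTOPE libraries, so that its level was 24.8 ± 1.9 CPM with EPR and 4.22 ± 0.48 CPM with EPRSTOPE (SD, n = 3). Markers of cell type differed between the conditions, and not all of them set mock apart. The epithelial cadherin *Cdh1* had 0.840 ± 0.463 CPM in mock cells, 554.5 ± 13.7 with EPR and 401.5 ± 22.8 with EPRSTOPE (SD, n = 3), whereas the chemokine *Cxcl12* had 49.0 ± 4.6 CPM in mock cells and no count elsewhere. The tight junction gene *Ocln* had 0.314 ± 0.151, 11.5 ± 0.4 and 6.85 ± 0.99 CPM and the mesenchymal cadherin *Cdh2* 329 ± 4, 132 ± 7 and 158 ± 8 CPM in the order mock, EPR, EPRSTOPE. Summed over 7 epithelial markers the level ran from 3417 to 3858 CPM in mock, from 8869 to 10000.4 CPM in EPR and from 10290.4 to 10598 CPM in EPRSTOPE libraries, mostly from the keratins *Krt8* and *Krt18*. Of those 7, 5 averaged under 1 CPM in mock cells, 2 in EPR cells and 3 in EPRSTOPE cells. The sum of 9 stromal markers ran from 2905 to 3118, from 1769 to 1963 and from 3170 to 3373 CPM in the same order, mostly from *Vim*. *Vim* itself had 2624 ± 105, 1762 ± 110 and 3130 ± 113 CPM, lowest in EPR cells. The epithelial *Epcam* was at 0 CPM in mock cells, 3.62 ± 1.06 with EPR and 0.109 ± 0.107 with EPRSTOPE. The stromal *Pdgfra* was at 0, 1.18 ± 0.22 and 1.29 ± 0.25 CPM (SD, n = 3). 5 of 6 leucocyte and endothelial markers averaged under 1 CPM in each condition. Mitochondrial genes took 1.18 to 1.39% of counts in mock, 1.90 to 2.58% in EPR and 1.62 to 1.68% in EPRSTOPE libraries. Transcripts annotated with a retained intron took 6.94 to 9.26%, 5.20 to 5.53% and 3.99 to 7.32% of TPM in the same order. These differences lie between the same conditions as the comparisons below. Their part in the results was not tested, and an effect of EPR and a difference between the transfected populations cannot be told apart in these libraries.

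Sequences around the annotated start sites are shown first, since p53 is known to act through response elements in DNA. RefSeq windows on GRCm38.p6, from 250 bases before to 50 bases after a start, covered 8 of the 10 genes in 9 windows, with a pair of windows for *Cdkn1a*. *Zmat3* and *Trp53inp1* have no entry. The windows were searched for the 10-base p53 half-site consensus, which reads the same on both strands, and for a full site of 2 such half-sites in tandem, at most 2 bases apart and with at most 1 mismatch outside the core C and G. The half-site occurred in 4 of the 9 windows and in 2745 of 32851 windows in all (8.36%). The full site occurred in 2 of the 9 windows, those of *Ccng1* and of the upstream start of *Cdkn1a*, and in 54 windows in all (0.164%). Capitals mark the sites. They are matches of letters only, and no binding was measured. The first pair are the full sites. The *Cdkn1a* site begins 51 bases before the start on the plus strand and the *Ccng1* site begins 195 bases before the start on the minus strand.
Cdkn1a, chr17:29090898-29090977, plus strand: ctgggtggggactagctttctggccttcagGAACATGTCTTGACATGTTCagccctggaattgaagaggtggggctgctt
Ccng1, chr11:40755432-40755511, minus strand: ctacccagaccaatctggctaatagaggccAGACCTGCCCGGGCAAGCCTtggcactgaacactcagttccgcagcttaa

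Single half-sites lay 186 bases before the start of *Mdm2*, 75 bases before that of *Trp53* and 73 bases before the upstream start of *Cdkn1a*, where the half-site does not overlap the full site printed above. They are shown because *Mdm2* and *Trp53* form the feedback loop and *Cdkn1a* carries both kinds of match. The *Mdm2* window lies around the upstream start only. The first intron, which holds the promoter that p53 is known to act on (below), was not searched.
Mdm2, chr10:117710920-117710959, minus strand: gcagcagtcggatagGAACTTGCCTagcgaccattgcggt
Trp53, chr11:69580269-69580308, plus strand: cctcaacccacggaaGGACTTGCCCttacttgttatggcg
Cdkn1a, chr17:29090891-29090930, plus strand: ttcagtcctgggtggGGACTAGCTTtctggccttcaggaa

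To ask whether the mRNA of p53 itself differed, *Trp53* (ENSMUSG00000059552.13, chromosome 11 from 69580359 to 69591873, plus strand, Gencode M21 on GRCm38) was read first. The level of *Trp53* was 109.8, 120.0 and 106 CPM in the mock libraries, 87.5, 78.4 and 74.6 CPM in the EPR libraries and 68.4, 85.5 and 97.1 CPM in the EPRSTOPE libraries. All 6 libraries with a transgene lay below all 3 mock libraries, while the EPR and EPRSTOPE libraries overlapped. The log2 fold change against mock was -0.48 (SE 0.11) in EPR cells and -0.41 (SE 0.11) in EPRSTOPE cells, which in neither case reached the size of 0.5 needed for a call. It passed that limit for EPR without mock library 205 (-0.53) or EPR library 206 (-0.54), and for EPRSTOPE without EPRSTOPE library 211 (-0.53). *Trp53* was thus the only 1 of the 10 genes with less RNA in the cells with a transgene than in mock cells. No count was assigned in any library to the processed pseudogene *Trp53-ps*.

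*Cdkn1a* (ENSMUSG00000023067.13, chromosome 17 from 29090976 to 29100727, plus strand) encodes the kinase inhibitor p21. The level of *Cdkn1a* was 6.34, 7.99 and 7.46 CPM in the mock libraries, 103, 94.0 and 92.8 CPM in the EPR libraries and 75.7, 84.5 and 78.6 CPM in the EPRSTOPE libraries. The conditions did not overlap, and the gap from mock to either of the others was many times the spread within a condition. The ratio of the mean levels was 13.3 for EPR against mock and 10.95 for EPRSTOPE against mock (log2 fold changes of 3.71, SE 0.09, and 3.44, SE 0.09).

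Among the arrest genes beside p21, *Btg2* (ENSMUSG00000020423.6, chromosome 1 from 134075170 to 134079120, minus strand) encodes an antiproliferative cofactor of mRNA deadenylation. Its level was 8.20, 7.57 and 8.52 CPM in mock, 65.3, 68.7 and 70.3 CPM in EPR and 44.4, 33.8 and 38.5 CPM in EPRSTOPE libraries. The 3 conditions were separate, with EPR highest. The log2 fold change of *Btg2* was 3.07 (SE 0.11) for EPR against mock and 2.25 (SE 0.11) for EPRSTOPE against mock.

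*Ccng1* (ENSMUSG00000020326.7, chromosome 11 from 40748552 to 40755311, minus strand) encodes cyclin G1, which recruits a phosphatase to MDM2. Its level was 101, 98.8 and 103 CPM in mock, 652, 689 and 697 CPM in EPR and 536, 449.7 and 469 CPM in EPRSTOPE libraries. It had the most counts of the 10 genes in both transgene conditions, and its mock libraries lay within a few CPM of each other. The log2 fold change was 2.75 (SE 0.07) for EPR and 2.26 (SE 0.07) for EPRSTOPE against mock.

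*Mdm2* (ENSMUSG00000020184.15, chromosome 10 from 117688875 to 117710758, minus strand) encodes the ubiquitin ligase of p53. Its level was 74.7, 74.3 and 81.1 CPM in mock, 384, 391.8 and 386 CPM in EPR and 288, 273 and 303 CPM in EPRSTOPE libraries. The EPR libraries of *Mdm2* were the most even of all, with a coefficient of variation of 1.09%. The ratio of mean levels was 5.05 for EPR and 3.75 for EPRSTOPE against mock (log2 fold changes of 2.33 and 1.90, SE 0.06 each).

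*Trp53inp1* (ENSMUSG00000028211.11, chromosome 4 from 11156431 to 11174379, plus strand) encodes a nuclear cofactor that promotes p53 phosphorylation. Its level was 8.97, 7.26 and 6.25 CPM in mock, 116, 136 and 163 CPM in EPR and 107, 98.7 and 93.4 CPM in EPRSTOPE libraries. All EPR libraries lay above the highest EPRSTOPE library. After *Eda2r* it had the largest log2 fold changes against mock, 4.24 (SE 0.15) for EPR and 3.77 (SE 0.15) for EPRSTOPE.

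*Zmat3* (ENSMUSG00000027663.12, chromosome 3 from 32334792 to 32366014, minus strand) encodes an RNA-binding zinc finger protein. Its level was 17.8, 21.2 and 24.3 CPM in mock, 89.9, 70.1 and 82.4 CPM in EPR and 63.0, 78.6 and 75.4 CPM in EPRSTOPE libraries. The last 2 conditions overlapped. The log2 fold change against mock was 1.92 (SE 0.13) for EPR and 1.76 (SE 0.13) for EPRSTOPE.

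*Sesn2* (ENSMUSG00000028893.8, chromosome 4 from 132492032 to 132510501, minus strand) encodes sestrin 2, a stress protein that senses leucine and restrains mTORC1. Its level was 9.44, 8.73 and 8.92 CPM in mock, 54.0, 52.9 and 44.9 CPM in EPR and 36.7, 32.3 and 29.6 CPM in EPRSTOPE libraries. All EPR libraries lay above all EPRSTOPE libraries, which in turn lay above mock. The log2 fold change was 2.49 (SE 0.11) for EPR and 1.86 (SE 0.12) for EPRSTOPE against mock.

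*Phlda3* (ENSMUSG00000041801.5, chromosome 1 from 135766119 to 135769136, plus strand) encodes a pleckstrin homology protein that competes with AKT for membrane lipids. Its level was 66.1, 74.3 and 66.9 CPM in mock, 149, 136 and 135 CPM in EPR and 140.05, 146 and 152 CPM in EPRSTOPE libraries. It had the smallest difference of the 9 targets, with mean levels 2.02 times mock in EPR and 2.11 times mock in EPRSTOPE cells. The log2 fold changes were 1.02 and 1.08 (SE 0.07 each).

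*Eda2r* (ENSMUSG00000034457.10, X chromosome from 97333840 to 97377216, minus strand) encodes the ectodysplasin A2 receptor of the TNF receptor family. It had 1, 2 and 2 counts in the mock libraries, all below the detection floor, against 965, 638 and 1075 counts in the EPR libraries and 438, 683 and 609 in the EPRSTOPE libraries. On the normalized scale these were 84.0, 80.3 and 100.1 CPM in EPR and 74.0, 72.7 and 69.9 CPM in EPRSTOPE cells. From the pooled counts the ratio to mock was 502 in EPR cells, with an exact 95% interval from 215 to 1548, and 407 in EPRSTOPE cells, with an interval from 174 to 1256. These intervals rest on 5 mock counts and cover counting error only. In bulk RNA, fewer cells with the transcript and less of it in each cell cannot be told apart.

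**Figure D1:**
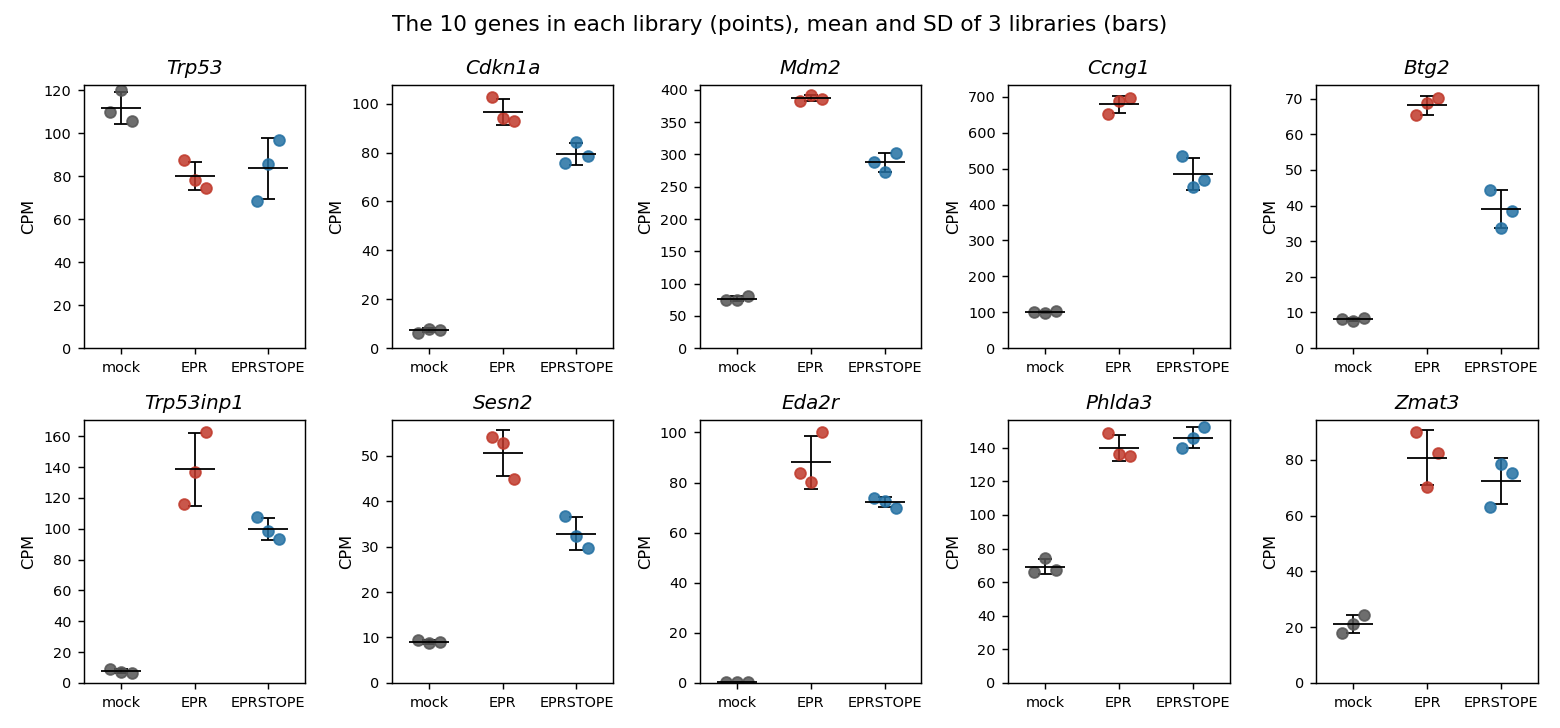
TMM-normalized level in CPM (linear axis from 0) of *Trp53* and 9 of its targets in each of the 9 libraries; points are libraries, the horizontal mark is the mean and the bar the SD of 3 libraries. *Trp53* lies lower in the EPR and EPRSTOPE libraries than in mock, and the other 9 genes lie higher.

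Across the group, 9 of the 10 genes were called higher in EPR than in mock cells (a log2 fold change beyond 0.5 with an adjusted p under 0.01), where 15.2% of the 15370 genes tested were called higher and 12.9% lower. 9 of the 10 were called higher in EPRSTOPE than in mock cells, where 15.6% of all genes were called higher and 12.4% lower. Since these values chose the genes and both comparisons share the mock libraries, nothing further is read from these counts. By the libraries themselves, 9 genes lay higher in all EPR libraries than in all mock libraries and 1 lay lower in all of them, a separation also found for 28.9% of all genes upward and 28.9% downward. The same held for 9 genes and 1 gene in EPRSTOPE, with 28.2% and 28.1% of all genes. The median log2 fold change of the 10 genes was 2.62 in EPR and 2.08 in EPRSTOPE cells, and that of all genes was -0.01 and -0.04. Within a condition the coefficient of variation had a median over the genes of 6.57% in mock, where *Eda2r* was left out for its 5 counts, 6.95% in EPR and 8.21% in EPRSTOPE libraries.

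**Figure D2:**
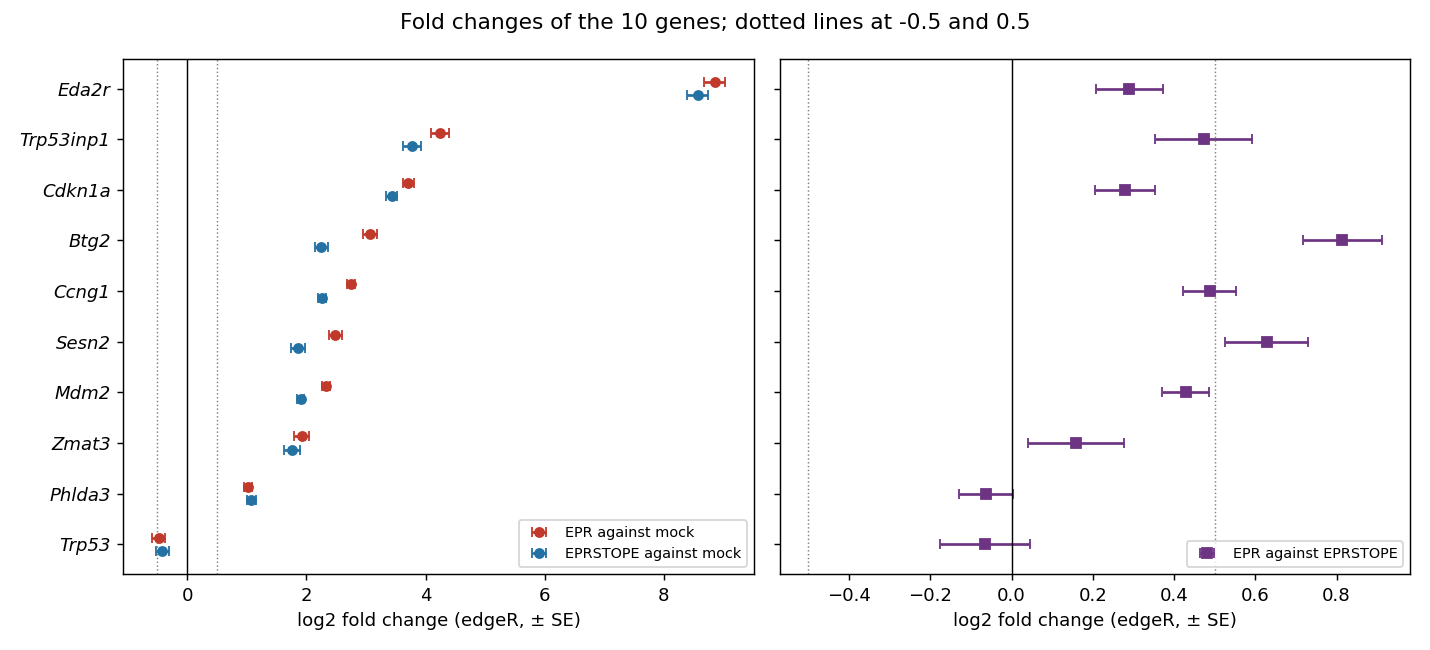
Log2 fold change of each gene with its standard error from edgeR, against mock on the left (red EPR, blue EPRSTOPE) and EPR against EPRSTOPE on the right, on a narrower axis; dotted lines mark the size of 0.5 needed for a call. Against mock *Eda2r* lies furthest to the right and *Trp53* left of 0, and on the right *Btg2* and *Sesn2* lie beyond the dotted line.

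The direct comparison of EPR with EPRSTOPE sets cells with the full transcript beside cells in which no peptide is made. It sets no mock level beside them, but it comes from the fit to all 9 libraries, in which mock enters the filter, the normalization and the estimate of the spread. *Btg2* was higher in EPR than in EPRSTOPE cells by 0.81 (SE 0.10) and *Sesn2* by 0.63 (SE 0.10) on the log2 scale, and these 2 of the 10 genes passed the cut-offs. *Ccng1* at 0.49 (SE 0.07), *Trp53inp1* at 0.47 (SE 0.12) and *Mdm2* at 0.43 (SE 0.06) fell short of the fold limit, as did *Eda2r* at 0.29 (SE 0.08) and *Cdkn1a* at 0.28 (SE 0.07). *Zmat3*, *Phlda3* and *Trp53* differed by 0.16, -0.06 and -0.07, with SEs of 0.12, 0.07 and 0.11. Of all genes tested, EPR was called above EPRSTOPE for 6.86% and below it for 6.35%. 7 of the 10 genes had all EPR libraries above all EPRSTOPE libraries, as 20.8% of all genes did, and none lay lower in every library, as 22.2% of all genes did. The number of calls among the 10 depended on the setting. It was 3 when only the 6 libraries of these conditions were fitted, 4 without EPR library 206, 4 when at least 10 counts were asked of every library, and 1 with counts rebuilt from TPM and length, where the number of genes called in all was 940 against 2031. EPR RNA was itself lower in EPRSTOPE than in EPR cells (above). Loss of the peptide, the lower amount of RNA and a difference between the transfected populations cannot be told apart.

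To compare levels between genes, TPM, transcripts per 1000000 after division by transcript length, were used. They sum all annotated transcripts of a gene, so that the order is not that of protein-coding transcripts alone. In EPR libraries transcripts annotated as protein-coding held 7.4 to 9.1% of the *Mdm2* level and 60.7 to 62.8% of the *Phlda3* level. In mock cells the highest mean levels were those of *Phlda3* (70.8 TPM), *Trp53* (61.3 TPM) and *Mdm2* (53.6 TPM), neighbours in this order whose libraries overlapped. *Ccng1* followed at 25.7 TPM, apart from the genes on either side, and the remaining 6 lay at 4.0 TPM or less. In EPR cells the order began with *Mdm2* (217 TPM), *Ccng1* (168 TPM) and *Phlda3* (128 TPM), and none of these overlapped with its neighbour. *Cdkn1a* at 53.9 TPM came before *Trp53* at 39.5 TPM and *Trp53inp1* at 38.7 TPM, of which the last 2 overlapped. *Eda2r* (24.2 TPM) overlapped with *Btg2* (21.8 TPM), and *Sesn2* (12.6 TPM) with *Zmat3* (10.8 TPM). In EPRSTOPE cells *Mdm2* (177 TPM), *Ccng1* (124 TPM) and *Phlda3* (117 TPM) again came first, each overlapping with the next, and *Sesn2* came last at 8.35 TPM. By TPM *Cdkn1a* thus stood below *Trp53* in mock cells and above it in every EPR library, while in EPRSTOPE cells *Trp53* (45.4 TPM) and *Cdkn1a* (44.3 TPM) overlapped.

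The transcripts behind the gene sums were then examined. *Mdm2* has 9 annotated transcripts. 5 begin within 100 bases of the gene's 5′ end and hold the first exon, whose 207 bases run from 117710552 to 117710758 in *Mdm2-202*. Another 3 begin further downstream, between that exon and the end of the second, at 117710292, 117710078 and 117710022, which is where the promoter in the first intron lies that p53 is known to act on. 1 is an internal fragment. The summed level of the downstream-start transcripts was 26.4, 11.6 and 26.8 TPM in mock, 135, 141 and 115 TPM in EPR and 59.6, 96.5 and 130.1 TPM in EPRSTOPE libraries. The upstream-start transcripts had 12.9, 20.4 and 13.8 TPM in mock, 37.4, 47.9 and 41.4 TPM in EPR and 46.4, 40.6 and 24.4 TPM in EPRSTOPE libraries. Both groups of transcripts lay above mock in every library with a transgene. The downstream start gave 67.2, 36.3 and 65.9% of the summed level in mock, 78.3, 74.6 and 73.5% in EPR and 56.2, 70.4 and 84.2% in EPRSTOPE libraries, so that the EPR libraries lay above all mock libraries and the EPRSTOPE libraries overlapped both. Of the downstream-start transcripts, *Mdm2-206*, annotated as a processed transcript, had the highest mean level, with 12.7 ± 4.8 TPM in mock cells, 65.0 ± 8.7 with EPR and 52.2 ± 29.8 with EPRSTOPE (SD, n = 3). *Mdm2-209*, annotated as subject to nonsense-mediated decay, had 7.44 ± 3.87 TPM in mock cells, 62.1 ± 5.2 with EPR and 40.1 ± 5.8 with EPRSTOPE (SD, n = 3). *Mdm2-203* was listed at 2.04, 3.18 and 1.80 TPM in mock and at 0 in the other 6 libraries. Transcripts of 1 gene share most of their sequence, and the level given to each is an estimate.

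The transcript with the upstream start of *Cdkn1a*, *Cdkn1a-202*, whose window holds the full site printed above, had 0.907, 0.592 and 0 TPM in mock, 9.53, 5.76 and 6.96 TPM in EPR and 0, 4.25 and 6.41 TPM in EPRSTOPE libraries. The other 2 transcripts, which begin 2790 and 6921 bases downstream, had 2.71, 4.12 and 3.69 TPM, then 49.7, 49.0 and 40.8 TPM, and then 38.7, 49.0 and 34.7 TPM in the same order. Most of the *Cdkn1a* level was thus assigned to the later starts in each library, most of that to *Cdkn1a-201* with 42.4 ± 2.8 TPM in EPR cells (SD, n = 3).

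**Figure D3:**
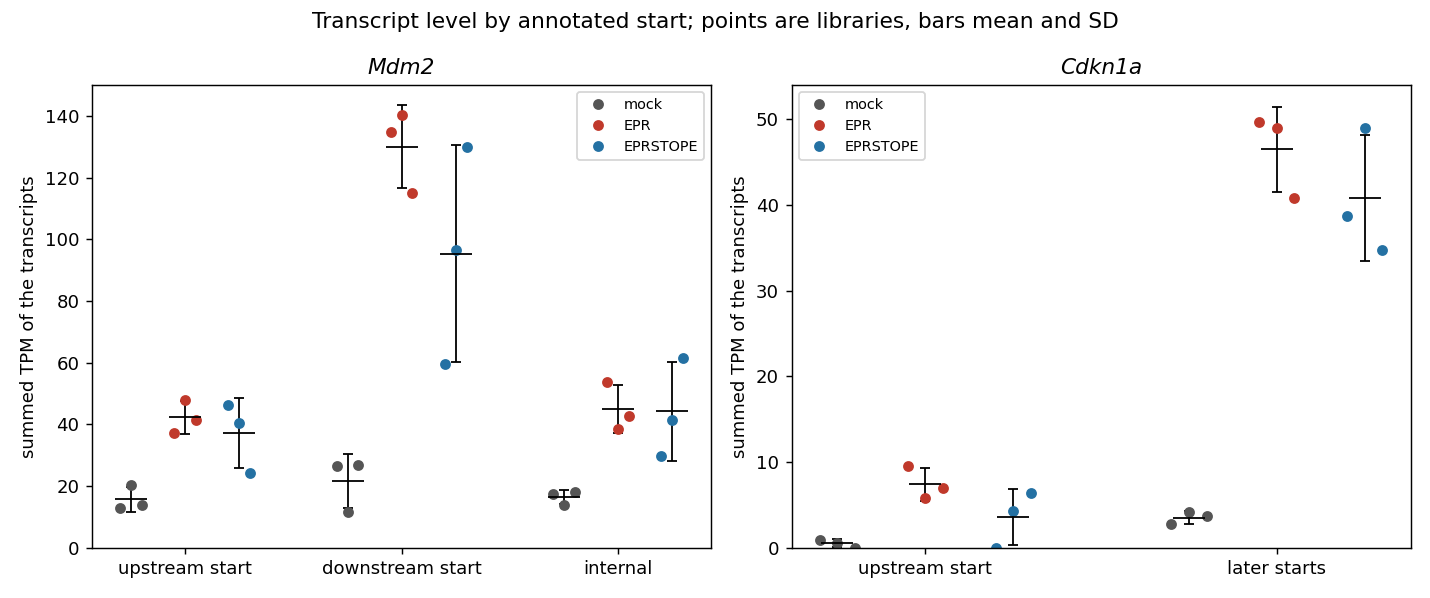
Summed level in TPM (linear axis from 0) of *Mdm2* and *Cdkn1a* transcripts grouped by annotated start; points are libraries, the horizontal mark is the mean and the bar the SD of 3 libraries. Downstream-start *Mdm2* transcripts have a mean of 130.1 TPM in EPR and 21.6 TPM in mock cells, and later-start *Cdkn1a* transcripts 46.5 and 3.50 TPM.

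Whether the mix of a gene's transcripts differed between conditions was tested apart from its total level, in the 8 genes of the group with at least 2 transcripts past the filter. None of the 8 passed edgeR's F test of transcript usage at an adjusted p under 0.01 in any comparison, where 1.11% of 8661 genes were called for EPR against mock, 1% for EPRSTOPE against mock and 0.312% for EPR against EPRSTOPE. The lowest adjusted p-values among the 8 belonged to *Trp53* and *Zmat3*, and none of them was a call. For *Trp53* they were 0.0302 for EPR against mock and 0.0662 for EPR against EPRSTOPE (F test in edgeR). For *Zmat3* they were 0.0307 for EPRSTOPE against mock and 0.0976 for EPR against EPRSTOPE (F test in edgeR). On counts simulated with the same spread for all transcripts, this test called more unchanged genes than its threshold allows, which bears on all its calls. The number of genes called in all moved with single libraries, from 29 without mock library 205 to 148 without EPRSTOPE library 209 for EPR against mock, and to 417 without EPRSTOPE library 211 for EPRSTOPE against mock. Without 1 library *Trp53inp1* (mock library 205), *Zmat3* (mock library 204) and *Trp53* (EPRSTOPE library 210) each passed in at least 1 comparison. For *Mdm2* the adjusted p for EPR against mock was 0.833 in edgeR. The short noncoding transcript *Trp53-204* had 5.27, 5.83 and 3.47 TPM in mock libraries, 0 in the EPR libraries and 6.07, 0 and 2.21 TPM in EPRSTOPE libraries. *Zmat3-203* had 0.00313, 1.73 and 0.0518 TPM in mock, 0.43, 2.88 and 0.961 TPM in EPR and at most 0.00660 TPM in EPRSTOPE libraries. *Trp53-203*, one of the 4 protein-coding transcripts of *Trp53*, carried the largest part of its level, 29.8 ± 2.9 TPM in mock cells, 21.4 ± 2.4 with EPR and 22.6 ± 3.0 with EPRSTOPE (SD, n = 3).

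The share of the summed TPM in transcripts annotated as protein-coding was 87.0 to 90.5% for *Trp53* in mock, 93.0 to 95.6% in EPR and 80.9 to 95.9% in EPRSTOPE libraries. It was 100% in every library for *Cdkn1a*, *Btg2* and *Sesn2*. *Mdm2* had 7.0 to 28.4% in mock, 7.4 to 9.1% in EPR and 2.6 to 24.1% in EPRSTOPE libraries, since most of its level was assigned to *Mdm2-209*, to the shorter *Mdm2-206* and to the retained-intron fragment *Mdm2-204*.

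The study's own primers for 2 of the genes, shown because they define which transcripts a PCR of these genes reads, were matched to the annotated transcripts. The *Cdkn1a* pair matched all 3 *Cdkn1a* transcripts of the files, with a product of 127 bases. The *Trp53inp1* pair matched *Trp53inp1-201* and *Trp53inp1-202*, with a product of 78 bases, and not the other 2 transcripts of that gene. The matched *Trp53inp1* transcripts had 0.967 ± 0.139 TPM in mock cells, 19.3 ± 3.5 with EPR and 14.5 ± 3.3 with EPRSTOPE (SD, n = 3). They made up 30.2 to 59.6% of the gene's TPM in mock, 40.0 to 57.1% in EPR and 37.3 to 72.0% in EPRSTOPE libraries, ranges that overlapped.
Cdkn1a forward primer: tgtcgctgtcttgcactctg
Cdkn1a reverse primer: accaatctgcgcttggagtg
Trp53inp1 forward primer: tagctttgcccctactccct
Trp53inp1 reverse primer: gccaaacaaattctgacggct

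The 10 genes lie on 7 chromosomes, and each was set beside the tested genes within 5 Mb of it to see whether its neighbourhood moved with it. In EPR against mock the median log2 fold change of the neighbours ran from -0.37 around *Trp53inp1* (36 neighbours) to 0.19 around *Btg2* (99 neighbours). No neighbour reached the log2 fold change of *Mdm2*, *Ccng1*, *Trp53inp1* or *Eda2r*. Around *Cdkn1a*, 3 of 203 neighbours were as high or higher, with a median of -0.07. *Phlda3*, which shares much of its window with *Btg2*, had 21 of 97 neighbours at or above its own value.

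**Figure D4:**
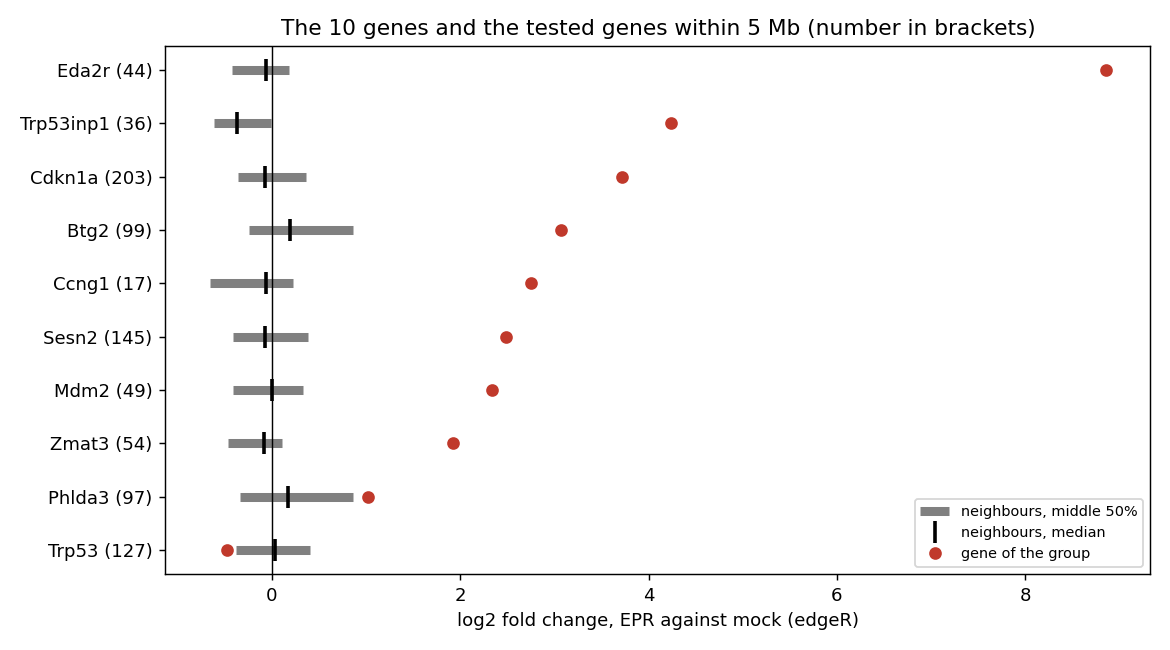
Log2 fold change for EPR against mock of each gene (red point) and of the tested genes within 5 Mb of it (grey bar from the lower to the upper quartile, black mark at the median, number of neighbours in brackets). The red points of 8 genes lie well to the right of the grey bars, *Phlda3* lies close to its bar and *Trp53* at its left end.

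Other targets of p53 were taken from 3 lists, which were chosen with earlier results of these data known. Of 11 cell death targets, 8 rose and none fell in EPR against mock cells (median log2 fold change 0.97), and 7 rose and none fell in EPRSTOPE against mock cells (median 0.80). Of all genes tested 15.2% rose and 12.9% fell in the first comparison, and 15.6% and 12.4% in the second. *Fas*, a death receptor, rose from 5.36 ± 0.29 CPM in mock cells to 52.1 ± 7.2 with EPR and 29.6 ± 2.4 with EPRSTOPE (SD, n = 3). The death receptor gene *Tnfrsf10b* rose from 13.9 ± 0.7 to 55.3 ± 1.9 and 57.1 ± 5.5 CPM. *Bbc3*, which encodes the BH3-only protein PUMA, rose from 3.51 ± 0.52 to 11.7 ± 2.0 CPM in EPR cells, while its 5.85 ± 0.29 CPM in EPRSTOPE cells was no call against mock. In EPR against EPRSTOPE cells 3 of the 11 were called higher (*Bbc3*, *Pmaip1* and *Fas*) and none lower, beside 6.86% and 6.35% of all genes. The 3 became 1 without EPR library 207 and with counts rebuilt from TPM and length. Nothing further is read from these counts.

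Of 15 targets in metabolism, growth control and stress, 7 rose in EPR and 9 in EPRSTOPE cells against mock, and none fell (medians 0.46 and 0.69). In EPR against EPRSTOPE cells 1 of the 15 was called higher (*Ddit4*, 0.50 on the log2 scale). Called lower were 2, *Gls2* (-1.57) and *Gdf15* (-1.14). Of all genes 6.86% were called higher and 6.35% lower in that comparison. *Ephx1*, an epoxide hydrolase, had 7.57 ± 3.15 CPM in mock cells, 223 ± 3 with EPR and 229.6 ± 3.6 with EPRSTOPE (SD, n = 3). *Ak1*, an adenylate kinase, had 12.8 ± 0.7, 119.9 ± 4.5 and 121.7 ± 6.8 CPM, and the mTORC1 inhibitor *Ddit4* had 9.83 ± 1.21, 65.7 ± 3.2 and 46.3 ± 2.1 CPM in the same order. *Sesn1*, the sestrin paralogue in this list, had 7.56 ± 1.40, 4.59 ± 0.94 and 4.54 ± 1.08 CPM and was not called. Of 7 targets in DNA repair and nucleotide supply, 2 rose in each comparison with mock and none fell (medians 0.29 and 0.27). These were the excision nuclease *Ercc5*, with 20.9 ± 0.7, 51.5 ± 2.4 and 42.4 ± 2.4 CPM, and the lesion-bypass polymerase *Polk*, with 30.6 ± 0.9, 56.8 ± 3.4 and 51.6 ± 4.4 CPM. *Ddb2* and *Rrm2b* were not called in any comparison. With counts rebuilt from TPM and length, 0 of the 7 repair genes were called higher and 1 lower in each comparison with mock. Over the 3 lists together 17 of 33 genes rose in EPR and 18 in EPRSTOPE cells against mock and none fell, beside the 15.2% and 15.6% of all genes. These lists, like those below, were chosen with earlier results of these data known, and both comparisons share the mock libraries. Nothing further is read from these counts.

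**Figure D5:**
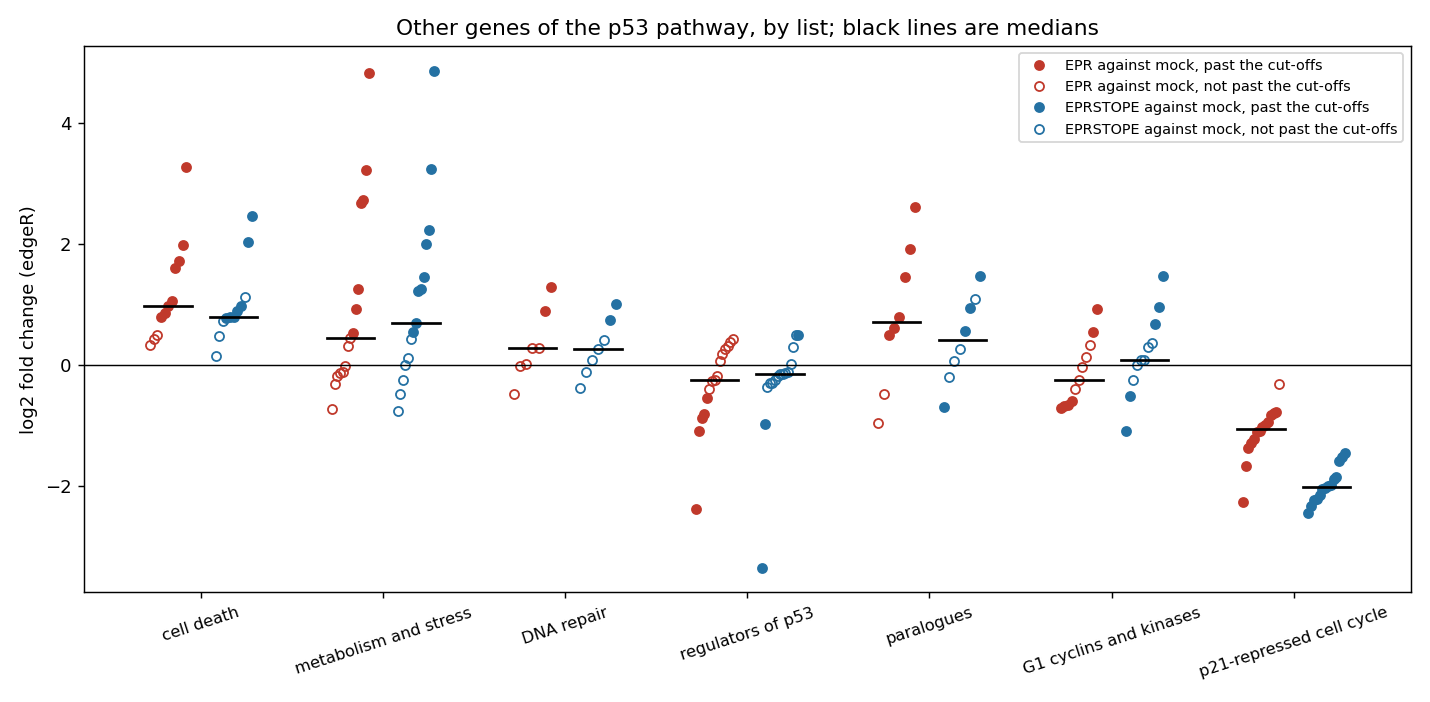
Log2 fold change against mock of the other tested genes of the pathway, by list, for EPR (red) and EPRSTOPE (blue); filled points passed the cut-offs, open points did not, and black lines are medians. Cell death targets lie above 0 throughout and the cell cycle genes that p21 is known to repress lie below 0 throughout.

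Regulators of p53 itself were read next. Of 15 such genes, 5 fell and none rose in EPR against mock cells, where 12.9% of all genes tested fell and 15.2% rose. In EPRSTOPE against mock cells 2 fell and 1 (*Hipk2*) rose, where 12.4% of all genes fell and 15.6% rose, so that these counts were near those shares. The call of *Hipk2* was lost without mock library 203 or 204, EPR library 208, or EPRSTOPE library 210 or 211. *Cdkn2a*, whose locus encodes the MDM2 inhibitor ARF and the kinase inhibitor p16, fell from 33.3 ± 5.6 CPM in mock cells to 6.41 ± 0.20 with EPR and 3.37 ± 1.40 with EPRSTOPE (SD, n = 3), log2 fold changes of -2.38 and -3.34. The checkpoint kinase gene *Chek1* fell from 25.1 ± 2.8 to 11.9 ± 1.7 CPM in EPR cells and had 19.5 ± 0.5 CPM in EPRSTOPE cells, and *Chek2* fell from 19.2 ± 2.2 to 10.5 ± 1.2 and 9.89 ± 1.51 CPM. *Mdm4*, the partner of MDM2, had 84.8 ± 5.3, 115 ± 13 and 77.2 ± 3.1 CPM and was not called against mock, while EPR was higher than EPRSTOPE by 0.57 on the log2 scale. The phosphatase gene *Ppm1d*, another feedback target, had 13.7 ± 1.3, 15.6 ± 1.0 and 19.3 ± 2.1 CPM and was not called.

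Paralogues of the 10 genes were read next. Of 12 paralogues 8 were tested, and 6 rose in EPR against mock cells while none fell. In EPRSTOPE against mock cells 3 rose and 1 fell (*Cdkn1b*). Of all genes 15.2% rose and 12.9% fell in the first and 15.6% and 12.4% in the second comparison. The 6 became 3 without EPR library 206 and with counts rebuilt from TPM and length. *Sesn3* had 20.1 ± 3.3 CPM in mock cells, 75.4 ± 6.1 with EPR and 38.3 ± 0.9 with EPRSTOPE, and *Trp53inp2* had 12.4 ± 1.4, 34.0 ± 2.2 and 34.1 ± 5.2 CPM (SD, n = 3). *Ccng2* had 15.4 ± 2.2, 27.2 ± 1.7 and 23.0 ± 1.9 CPM. *Cdkn1b*, which encodes the p21 relative p27, had 52.6 ± 2.5, 38.0 ± 3.4 and 32.5 ± 3.2 CPM, with mock highest where *Cdkn1a* had mock lowest. The p53 relatives *Trp63* and *Trp73* and the receptor *Edar* were listed at 0 in all 9 libraries.

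Downstream of p21, the cell cycle machinery was read in 2 lists. Of 14 genes that the p53-p21-DREAM route is known to repress, 13 fell in EPR against mock cells (median log2 fold change -1.05) and all 14 fell in EPRSTOPE against mock cells (median -2.01). Of all genes tested 12.9% and 12.4% fell in these comparisons. This list too was chosen with earlier results known, so that nothing further is read from its counts. *Ccnb2* was the exception in EPR, with 48.5 ± 5.9 CPM against 39.4 ± 1.4 CPM with EPR (SD, n = 3). *Foxm1*, a transcription factor of the mitotic genes, had 117 ± 3 CPM in mock cells, 36.8 ± 2.6 with EPR and 24.8 ± 2.6 with EPRSTOPE. Cyclin A2 (*Ccna2*) had 198 ± 12, 76.9 ± 0.4 and 47.9 ± 2.0 CPM in the same order. In EPR against EPRSTOPE 13 of the 14 were higher and 1 was lower (median 0.99), beside 6.86% and 6.35% of all genes. The 1 lower gene was *Mybl2*, with 101 ± 10, 20.9 ± 3.2 and 35.5 ± 1.2 CPM. *Cdkn1a* itself was higher in EPR than in EPRSTOPE cells by 0.28 on the log2 scale, which was no call, although their libraries did not overlap. Whether *Cdkn1a* had a part in the cell cycle differences was not tested.

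Of 11 G1 cyclins, kinases and partners, 2 rose and 4 fell in EPR against mock, 3 rose and 2 fell in EPRSTOPE against mock, and 1 rose and 5 fell in EPR against EPRSTOPE. The shares of all genes that rose and fell were 15.2% and 12.9%, 15.6% and 12.4%, and 6.86% and 6.35% in these comparisons, so that with 11 genes the 2 that rose in EPR and the 2 that fell in EPRSTOPE were near the background. With counts rebuilt from TPM and length, 0 rose against mock in either condition, and without mock library 204 or EPRSTOPE library 211 only 1 fell in EPRSTOPE. Cyclin D2 (*Ccnd2*) had 175 ± 9 CPM in mock cells, 332 ± 19 with EPR and 82.1 ± 1.8 with EPRSTOPE (SD, n = 3), so that it rose against mock in EPR and fell in EPRSTOPE, with a direct difference of 2.02 (SE 0.06) on the log2 scale. *Cdk4* fell from 343 ± 22 to 209 ± 4 and 241 ± 8 CPM. *Cdk2* fell from 49.6 ± 3.7 to 31.2 ± 5.1 CPM in EPR cells and had 52.6 ± 1.1 CPM in EPRSTOPE cells. *Pcna*, which p21 also binds, had 245 ± 18, 162 ± 6 and 246 ± 22 CPM. Cyclin E1 (*Ccne1*), among the 3 that rose in EPRSTOPE cells, had 13.5 ± 2.6, 13.4 ± 1.8 and 38.0 ± 3.9 CPM.

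Among the 9312 other genes averaging at least 10 CPM, those whose centred log2 CPM profile over the 9 libraries lay nearest to that of *Cdkn1a* by Euclidean distance were *Pilrb2* (0.593), *Mgst1* (0.599), *Ak1* (0.706), *Igf2bp3* (0.728) and *Fam212b* (0.730). *Pilrb2* had 3.80 ± 0.68 CPM in mock cells, 44.6 ± 0.3 with EPR and 46.5 ± 2.5 with EPRSTOPE, and *Mgst1* had 7.13 ± 2.03, 82.6 ± 8.5 and 76.9 ± 5.2 CPM (SD, n = 3). Of the other genes of the p53 group, *Trp53inp1* came nearest, at rank 15 with a distance of 0.952, followed by *Btg2* at rank 61 and *Ccng1* at rank 65. *Trp53*, at rank 7626, and *Eda2r*, at rank 7909, were far from it. The distance was not scaled to the size of the change. *Eda2r* lay above mock as *Cdkn1a* did but by more (log2 fold changes of 8.86 and 3.71 in EPR against mock), whereas *Trp53* lay below mock. All these profiles share the same 9 libraries.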

How the data were processed

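Total RNA of stably transfected NMuMG cells was made into 9 stranded libraries and sequenced as paired 75-base reads, per the labels. The authors quantified the reads with kallisto 0.43.1 on Gencode vM15 transcripts (build GRCm38.p5 in the submitters' processing notes, which also name bcl2fastq 2.0) and deposited the estimated counts of the transcripts, not normalized, beside TPM values that account for effective length. Whether strand was used in quantification is not given in the sources used here.

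The estimated counts were summed by gene symbol, rounded to whole numbers and tested with edgeR 4.0.16 in R 4.3.3 (quasi-likelihood F test, TMM normalization, a single factor of 3 conditions, all 9 libraries, a filter of 1 CPM or more in 3 libraries or more, Benjamini-Hochberg adjustment over all 15370 genes). A call needed a log2 fold change beyond 0.5 with an adjusted p under 0.01. Transcript usage was tested with an F test in edgeR on transcripts past the same filter, at an adjusted p under 0.01. On simulated data the gene test recovered nearly all changes. These were all planted well beyond the fold limit of 0.5, so that recovery of changes near that limit was not examined. The usage test called more unchanged genes than its threshold allows, in a simulation that gave all transcripts the same spread. Libraries of 5972457 to 11876435 estimated counts put 3 counts at 0.253 to 0.502 CPM. Libraries of a condition differed by more than sampling noise. Each was entered as 1 replicate, which does not show that they came from separate pools. Alternatives were DESeq2 1.42.0, limma 3.58.1 with voom, other filters, scalings, thresholds and leaving out each library.

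The genes of the group and all lists were chosen with earlier results of these data known. Named from each list were the 3 genes with the largest change in EPR against mock among those called with a mean of at least 5 CPM, and every gene called in opposite directions in EPR and EPRSTOPE. Named further were the 5 genes nearest to *Cdkn1a*. Other list genes in the text (*Pmaip1*, *Sesn1*, *Gls2*, *Gdf15*, *Ddb2*, *Rrm2b*, *Hipk2*, *Mdm4*, *Ppm1d*, *Cdkn1b*, *Ccnb2*, *Ccne1*, *Pcna*, *Epcam*, *Pdgfra*, and the relatives listed at 0) were chosen after their values were seen. Positions are from Gencode M21 (GRCm38), promoter windows from RefSeq. Python 3.11.15 with pandas 2.3.3, numpy 2.4.6 and scipy 1.17.1 served for the other steps.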

Additional observations from a re-analysis of the deposited data

Results flagged for a closer look

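Several named genes of the pathway differed between EPR and EPRSTOPE cells, whose changes against mock count from the same mock libraries, by the direct test in edgeR. Cyclin D2 (*Ccnd2*) went in opposite directions against mock and differed by 2.02 on the log2 scale, higher in EPR. Higher in EPR than in EPRSTOPE cells were also *Bbc3* (0.99), *Sesn3* (0.98), *Fas* (0.82), *Ccna2* (0.69), *Foxm1* (0.56) and *Ddit4* (0.50). Lower in EPR than in EPRSTOPE cells were *Mybl2* (-0.76), *Cdk2* (-0.76) and *Chek1* (-0.72). All of these were past an adjusted p under 0.01 over the 15370 genes tested. The lower amount of EPR RNA in EPRSTOPE cells, the missing peptide and a difference between the transfected populations cannot be told apart in these values.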

How the results depend on the processing

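No paired analysis was made, since the labels give no pairing of libraries across conditions. Of the 10 genes, 9 were called higher than mock in both conditions by every tool, scaling and fold limit tried. With at least 10 counts in every library, 8 were called, since *Eda2r* fails that filter in mock and was not tested. *Trp53*, called lower than mock, brought the number called in either direction to 10 in some settings. These were without mock library 205 or EPR library 206 (EPR), without EPRSTOPE library 211 (EPRSTOPE), and at an adjusted p under 0.05 with no fold limit (both). Genes called in all against mock were 2296 (EPR) and 2373 (EPRSTOPE) beyond a log2 fold change of 1, and 7478 and 7442 at an adjusted p under 0.05 with no fold limit.

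In EPR against EPRSTOPE the number of the 10 genes called moved from 2 to 4 when every library had to hold at least 10 counts, to 1 with counts rebuilt from TPM and length, to 0 beyond a log2 fold change of 1 and to 7 at an adjusted p under 0.05 with no fold limit, and ran from 2 to 4 when single libraries were left out. Genes called in all were 940, 1001 and 4637 with rebuilt counts, the stricter fold limit and the looser p, against 2031. Usage calls ran from 29 to 148 (EPR against mock), from 44 to 417 (EPRSTOPE against mock) and from 22 to 125 (EPR against EPRSTOPE) when single libraries were left out. The cause was not tested. The median of all genes moved by under 0.1 on the log2 scale with any scaling. At this depth *Eda2r* in mock cells cannot be measured beyond an interval.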
